A study of Mus musculus with 6 samples.

Results

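The organic ion carriers and ABC transporters of the mouse prostate were described in 6 whole-prostate RNA samples. They were all genes of the deposited table whose symbol names them as a member of the Slc22, Slco or Slc47 families of solute carriers or of the ABC families A to G. This rule uses symbols alone and found 92 of 34745 genes, 50 of them ABC transporters and 42 of them carriers (25 Slc22, 15 Slco and 2 Slc47 genes). The mice were C57BL/6 males aged 6 to 8 weeks at the start. In the T + E2 group (n = 3), each mouse carried 1 pellet of testosterone and estradiol under the skin for 12 weeks, renewed every month, as a model of benign prostatic hyperplasia. In the control group (CON group, n = 3), the skin was opened and closed without a pellet. The methods name no removal of the testes in either group, and no hormone level is in the files used here. The comparison asks which of these transporter genes differ in expression between hormone-treated and control prostate.

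ABC transporters are membrane pumps that use ATP to move lipids, drugs, conjugated metabolites or peptides across a membrane, mostly out of the cell or into an organelle. Slc22 and Slco carriers take organic cations, organic anions, carnitine, bile acids, steroid conjugates, thyroid hormones or prostaglandins into cells, and Slc47 proteins exchange organic cations for protons on their way out. Together they set what enters and leaves secretory and barrier epithelia, and several are best known from liver, kidney, intestine and the brain's blood vessels. Members of the ABC E and F families have no membrane part and work with the ribosome.

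Reads counted on genes totalled 14816146 to 16555549 per mouse, and a count of 3, set as the detection floor, equalled 0.181 to 0.202 CPM, the count scaled to a common library size. This limit covers counting error only. The prostate marker Hoxb13 was abundant in every mouse. Markers of other cells moved with the groups or with single mice. Summed over 7 markers, seminal vesicle RNA came to 10310 CPM in CON replicate 2 and 642 CPM in T + E2 replicate 2, against at most 4.1 CPM in the other 4 mice, and the 5 adipocyte markers reached 229 CPM in CON replicate 2 against 41.5 to 79.2 CPM elsewhere. The sums of the 4 nerve and glia markers (68.3 to 102 CPM in CON, 35.7 to 56.6 CPM in T + E2), the 8 macrophage markers (9 rows, 226 to 321 and 368 to 528 CPM), the 7 endothelial markers (113 to 155 and 156 to 187 CPM), the 6 urothelial markers (423 to 642 and 1373 to 1701 CPM) and the 6 smooth muscle markers (4080 to 5070 and 3577 to 3917 CPM) did not overlap between the groups. Nor did those of the red cell (53.8 to 66.1 and 133 to 419 CPM), mast cell and prostate secretion markers (38830 to 52030 and 16350 to 18310 CPM), while those of fibroblasts, T cells, B and plasma cells, luminal and basal epithelium and skeletal muscle overlapped. Of the tested markers, 2 of 4 for nerve, 2 of 8 for macrophages, 0 of 7 for endothelium, 2 of 4 for urothelium and 0 of 6 for smooth muscle passed both thresholds used below in edgeR (DESeq2 also 0 for endothelium and smooth muscle, with 1 and 2 at an unadjusted p under 0.05 in edgeR), and the urothelial marker Upk3a had no count in the CON mice. Of all tested genes, 7.64% passed both thresholds in edgeR. In whole prostate, fewer cells of a type and less RNA per cell cannot be told apart, and the part of these marker shifts in the results below was not tested.

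Of the 92 genes, 58 had enough counts to be tested, 16 had no count in any mouse and 27, these 16 included, had at most 3 counts in every mouse. The quasi-likelihood test of edgeR was run on all 15580 testable genes with the Benjamini-Hochberg adjustment over them. A differentially expressed gene (DEG) needed both an adjusted p under 0.05 and a log2 fold change beyond 1 in either direction. Positive values are higher in T + E2, and SE is the standard error of the log2 fold change. A total of 7 DEGs were found among the 58 (12.1%), where 7.64% of all tested genes were DEGs. Abcb5, Slco2a1 and Abca4 were upregulated (3 genes, with a background of 4.27% of all tested genes) and Slc47a2, Abcc8, Abcg4 and Slco5a1 were downregulated (4 genes, background 3.38%). At the adjusted p alone, 15 of the 58 (25.9%) passed, 6 higher and 9 lower in T + E2, where 19.6% of all tested genes passed (10.4% higher, 9.25% lower). The 3 values of one group lay wholly above or below those of the other in 28 members (48.3%), 12 of them higher and 16 lower in T + E2, where this held for 40.7% of all tested genes (20.1% higher, 20.7% lower). The median log2 fold change was -0.02 over the 58 members and -0.002 over all tested genes, and the median absolute change was 0.32 and 0.26.

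**Figure D1:**
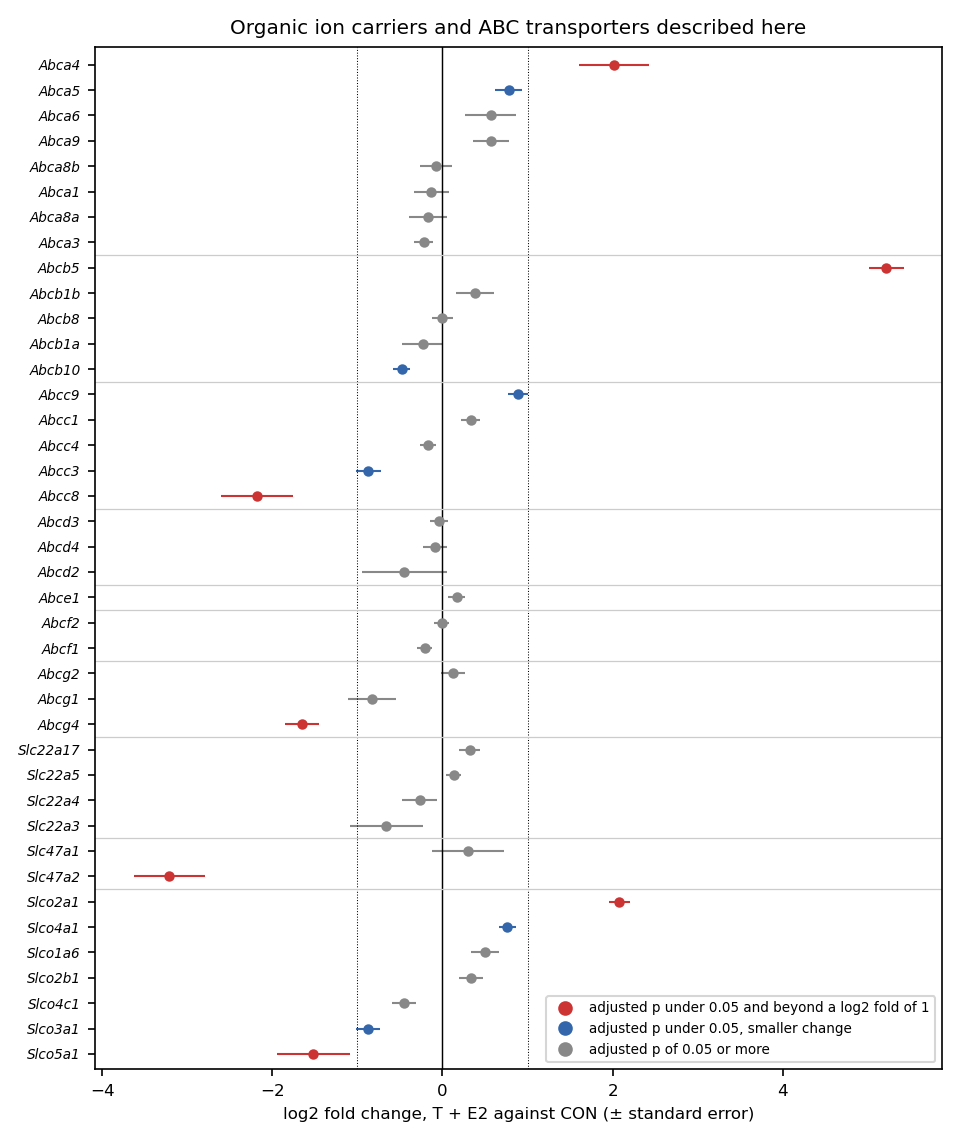
The log2 fold change of T + E2 against CON (horizontal axis, bars show ± 1 standard error) is plotted for 40 of the 58 tested genes, those named in the text, grouped by family. The 7 DEGs (red) reach from -3.21 for Slc47a2 to 5.22 for Abcb5, and 23 of the 40 genes lie within 0.5 of no change.

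Without both mice numbered 2, which held most of the seminal vesicle RNA, 5 members were DEGs. The 4 shared with the 7 above were Abcb5 (log2 fold change 5.39), Slco2a1 (2.25), Slc47a2 (-3.11) and Abcg4 (-1.46), and Abcc2 was gained. Abca4 kept a log2 fold change of 2.05 with an adjusted p of 0.0724, Abcc8 of -2.0 with 0.0944 and Slco5a1 of -1.41 with 0.188. At the adjusted p alone 10 members passed without these mice, and Abca5 (adjusted p = 0.0869) and Abcb10 (0.11) were among those that did not.

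The B family holds full pumps of drugs and lipids at the cell surface and smaller pumps of mitochondria, lysosomes and the endoplasmic reticulum. Abcb5, a relative of the multidrug pumps that is known from pigment cells and limbal stem cells of the eye, showed the largest change of the 58 tested members. Its counts were 9, 12 and 7 in CON and 311, 406 and 335 in T + E2. All 3 T + E2 mice were far above all 3 CON mice. The mean rose from 0.608 ± 0.174 to 22.8 ± 1.66 CPM (SD, n = 3), a log2 fold change of 5.22 (SE 0.20, adjusted p = 7.68e-06) or 37.2-fold. Per length, its level went from 0.131 ± 0.0394 to 4.78 ± 0.421 FPKM (fragments scaled by gene length and library total), rank 32 among the members by mean over the 6 mice. The gene lies on the minus strand of chromosome 12 (118867824 to 118966421, build GRCm38), and no other counted gene shares its exons.

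The 250 bases before the RefSeq starts of the 2 most strongly upregulated genes and of the most strongly downregulated gene are shown, since the results turn on these genes most. Capitals mark 2 of the 4 motifs searched on both strands. The first is AGAACA, which forms the core of an androgen receptor site. The other is the TATA box, spelled TATAAA. Each sequence reads 5′ to 3′ in the direction of its gene, from RefSeq on build GRCm38.p6, at chr12:118966422-118966671 (minus strand) for Abcb5, chr9:103008237-103008486 (plus strand) for Slco2a1 and chr11:61342861-61343110 (minus strand) for Slc47a2.
Abcb5: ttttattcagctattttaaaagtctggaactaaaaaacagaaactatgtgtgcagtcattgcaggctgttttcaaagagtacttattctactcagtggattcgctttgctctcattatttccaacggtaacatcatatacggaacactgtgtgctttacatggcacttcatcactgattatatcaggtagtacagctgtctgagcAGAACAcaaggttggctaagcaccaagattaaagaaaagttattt
Slco2a1: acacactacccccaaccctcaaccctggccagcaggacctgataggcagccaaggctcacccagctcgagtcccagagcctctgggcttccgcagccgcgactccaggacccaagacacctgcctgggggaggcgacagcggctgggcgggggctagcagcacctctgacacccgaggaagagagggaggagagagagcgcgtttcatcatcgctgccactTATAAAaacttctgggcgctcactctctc
Slc47a2: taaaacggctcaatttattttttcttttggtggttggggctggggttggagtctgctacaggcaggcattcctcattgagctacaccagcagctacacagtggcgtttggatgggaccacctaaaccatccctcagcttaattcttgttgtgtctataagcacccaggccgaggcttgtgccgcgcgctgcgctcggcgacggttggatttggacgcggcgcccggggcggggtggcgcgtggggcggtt

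In Abcb5 the letters AGAACA lie 45 bases before the start, and the window has a GC content of 36.8%. In Slco2a1 TATAAA lies 29 bases and the GC box GGGCGG 106 bases before the start, in a window with 63.2% GC. The Slc47a2 window, at 58% GC, holds GGGCGG 25 and 8 bases before the start and none of the other 3 motifs. These letters are common. Among 32851 mouse promoter windows of 250 bases AGAACA occurs in 16.1%, TATAAA in 12.4% and GGGCGG in 32.7%, and among the 86 windows of the 74 members that could be matched the shares were 17.4%, 12.8% and 33.7%. The full palindromic estrogen response element, with any 3 bases between its arms, occurs in 0.0639% of all windows and in none of the 86. A match describes the letters alone.

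The multidrug pumps next of kin to Abcb5 did not pass the test. Abcb1a and Abcb1b, which together do the work of P-glycoprotein, had log2 fold changes of -0.23 (adjusted p = 0.538) and 0.38 (adjusted p = 0.255). Their transcripts are 87.7% identical over 4000 bases, so reads could be shared, and the sum of both had a log2 fold change of -0.03 (adjusted p = 0.944). Abcb10, a pump of the inner mitochondrial membrane linked to haem synthesis, fell by 0.48 on the log2 scale (SE 0.10, adjusted p = 0.0119). Its values were 25, 27.1 and 27.5 CPM in the CON mice and 18.9, 18.2 and 20 CPM in the T + E2 mice. The groups did not overlap. Abcb8, another mitochondrial member, had a log2 fold change of 0.00 (adjusted p = 0.997). Of the family members with other symbols, the peptide pump subunits of antigen presentation moved in opposite directions, Tap1 by -0.54 (adjusted p = 0.0409) and Tap2 by 0.41 (adjusted p = 0.0267) on the log2 scale. Cftr, a chloride channel, was not tested. It had 0, 1 and 1 counts in CON and 12, 11 and 2 counts in T + E2, all but 2 mice at or below the limit of 3 counts.

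Slco2a1, the prostaglandin carrier that clears prostaglandins from the fluid around cells before they are broken down, showed the second largest rise among the members. Its values were 27.3, 33.7 and 29.1 CPM in CON and 133, 112 and 136 CPM in T + E2. Every T + E2 mouse was more than 3 times above every CON mouse. The mean rose from 30 ± 3.31 to 127 ± 13.1 CPM (SD, n = 3), a log2 fold change of 2.08 (SE 0.12, adjusted p = 3.82e-05). Per length it went from 2 ± 0.239 to 8.21 ± 0.873 FPKM. In the deposited table the gene spans 102988712 to 103096002 of chromosome 9, which begins before the RefSeq start used for the sequence above. A stretch of 316 bases of its transcript, 4.4% of the length, is 85.1% identical to Slc25a43.

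The other genes of prostaglandin handling were counted from a list of 12, all tested. Of these 2 were upregulated and 2 downregulated (4.27% and 3.38% of all tested genes), with a median log2 fold change of -0.07. Hpgd, the enzyme that inactivates prostaglandins inside the cell after uptake, rose from 140, 138 and 152 CPM to 343, 359 and 293 CPM (log2 fold change 1.21, SE 0.11, adjusted p = 0.000242). Ptges, a synthase of prostaglandin E2, rose from 180, 150 and 162 CPM to 421, 374 and 399 CPM (1.28, SE 0.10, adjusted p = 0.000169). In both genes every T + E2 mouse lay above every CON mouse. Ptgs1, the constitutive cyclooxygenase that makes the common precursor, fell from 72.8, 63.8 and 82.8 CPM to 24.6, 25.4 and 23.1 CPM (log2 fold change -1.59, adjusted p = 9.8e-05), and Akr1b3, an aldose reductase that also makes prostaglandin F2 alpha, fell from 263, 250 and 296 CPM to 92.3, 84.7 and 73.8 CPM (-1.69, adjusted p = 6.94e-05). The inducible Ptgs2 had a log2 fold change of 0.78 (adjusted p = 0.0602). Abcc4, a pump that exports prostaglandins and cyclic nucleotides, had 71, 63.2 and 62.6 CPM in CON and 60.7, 54.2 and 60 CPM in T + E2, with a log2 fold change of -0.17 (adjusted p = 0.245).

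**Figure D2:**
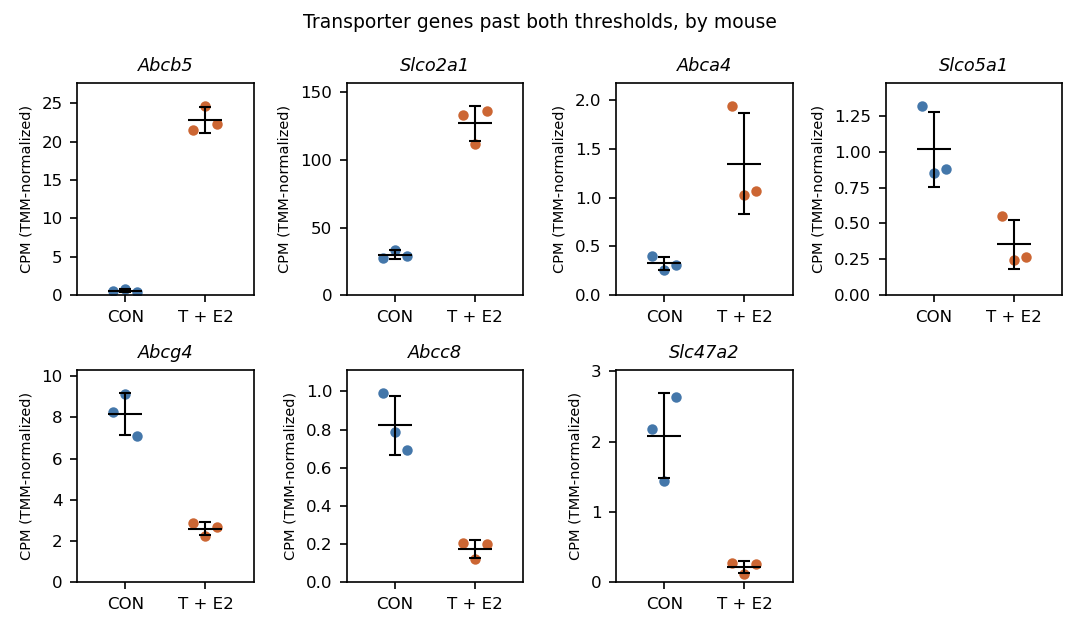
CPM of each of the 7 DEGs among the transporters (vertical axes, each from 0) is shown for the 3 CON mice (blue) and 3 T + E2 mice (orange), with the mean and SD in black. The groups do not overlap in any of the 7 panels, and Abca4, Abcc8 and Slco5a1 stay below 2 CPM in every mouse.

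Organic cations such as biogenic amines and many basic drugs enter cells by Slc22 carriers and leave by Slc47a1 and Slc47a2. Slc47a2, the second proton exchanger of the family (MATE2), fell most. Its counts were 33, 22 and 42 in CON and 4, 2 and 4 in T + E2. All T + E2 mice were just below or just above the limit of 3 counts, and far below the CON mice. The mean went from 2.09 ± 0.603 to 0.222 ± 0.0867 CPM (SD, n = 3), a log2 fold change of -3.21 (SE 0.42, adjusted p = 0.00179). Its neighbour Slc47a1 (MATE1) lies 540 bases away on the same strand of chromosome 11 and had 0.595, 1.44 and 0.942 CPM in CON and 0.829, 1.7 and 1.13 CPM in T + E2. The groups overlapped (log2 fold change 0.30, SE 0.42, adjusted p = 0.646). The difference between the changes of the 2 genes was not tested. The sequence printed for Slc47a2 lies in the gap between both.

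The cation carrier Slc22a3 (OCT3) had a log2 fold change of -0.66 (adjusted p = 0.315) with overlapping groups. Slc22a5 (OCTN2) carries carnitine, needed to bring fatty acids into mitochondria. It had 34.7, 34.1 and 37 CPM in CON and 35.7, 41.7 and 38.3 CPM in T + E2 (log2 fold change 0.13, adjusted p = 0.365). Its transcript is 88.8% identical over 2115 bases to that of a neighbouring Slc22 gene, so reads could be shared. The related Slc22a4 (OCTN1) had a log2 fold change of -0.27 (adjusted p = 0.394). Of 9 tested genes of carnitine handling none was a DEG by edgeR or DESeq2, where edgeR called 7.64% of all tested genes. In edgeR 3 of the 9 had an unadjusted p under 0.05. At the adjusted p alone 2 fell, Slc25a29 by 0.73 and Cpt1a by 0.35 on the log2 scale, and the median change was -0.08.

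Slc22a17, a receptor for the iron-binding protein lipocalin 2, was among the most abundant members with 30.1, 36.5 and 35.4 FPKM in CON and 40.5, 37.2 and 46.6 FPKM in T + E2. The groups did not overlap in FPKM, yet its log2 fold change of 0.32 (SE 0.12, adjusted p = 0.0928) did not pass. Its ligand Lcn2, chosen after its values were seen, had 53.3, 11.3 and 17.7 CPM in CON and 35.2, 244 and 38.1 CPM in T + E2, where T + E2 replicate 2 alone was high (log2 fold change 1.95, SE 0.85, adjusted p = 0.146). By edgeR no member of the Slc22 family was a DEG among the 11 tested, where 7.64% of all tested genes were. In edgeR 3 of the 11 had an unadjusted p under 0.05, and DESeq2 called 0. The organic anion carriers of kidney were at the limit, with no count of Slc22a6 (OAT1) in any mouse and 1 count in all of Slc22a8 (OAT3).

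**Figure D3:**
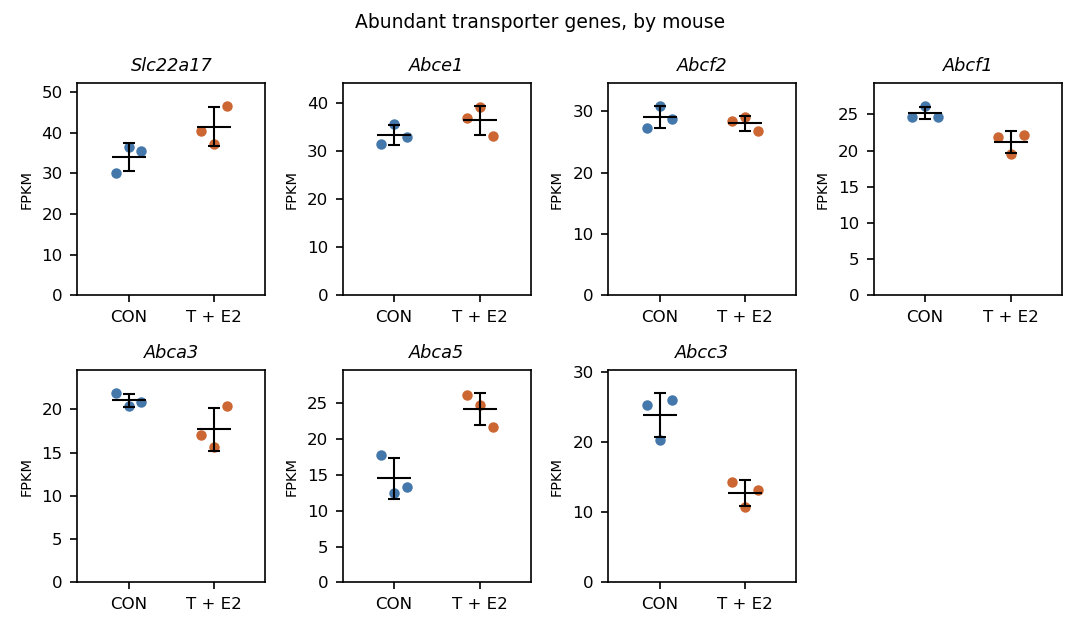
FPKM (vertical axes, each from 0) of 7 abundant transporter genes is shown by mouse, CON in blue and T + E2 in orange, with the mean and SD in black. Abcf1, Abca5 and Abcc3 have groups that do not overlap, Abcc3 at 20.3 to 26 against 10.7 to 14.3, and Slc22a17 separates by a narrow gap, while Abce1, Abcf2 and Abca3 overlap or touch.

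The Slco family takes up organic anions. Of its 7 tested members 2 were DEGs, 2 more passed the adjusted p alone and 6 had groups that did not overlap, where these shares were 7.64%, 19.6% and 40.7% of all tested genes (the second with the DEGs included). Slco4a1, a widely expressed carrier of thyroid hormones and prostaglandins, rose from 19.5, 17 and 18.3 CPM to 31.3, 30.4 and 30.9 CPM (log2 fold change 0.76, SE 0.10, adjusted p = 0.00147). Slco3a1, a carrier of prostaglandins and thyroxine, fell from 37, 38.2 and 40.3 CPM to 19.6, 17.9 and 25.5 CPM (-0.88, SE 0.14, adjusted p = 0.00385). In neither gene did the groups overlap, and without T + E2 replicate 3 the change of Slco3a1 was -1.04. Slco5a1, whose substrates are little known, had 20, 13 and 14 counts in CON and 8, 4 and 4 counts in T + E2. Every T + E2 mouse was below every CON mouse, at a log2 fold change of -1.52 (SE 0.43, adjusted p = 0.0426). This call was lost when any mouse other than T + E2 replicate 1 was left out, with an adjusted p of up to 0.139, and with DESeq2 (0.155).

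Slco4c1, a carrier of cardiac glycosides and thyroid hormones in the kidney, was the highest Slco gene with 25.9, 19.6 and 17.8 FPKM in CON and 14.3, 14.7 and 16.3 FPKM in T + E2. Its log2 fold change of -0.45 (SE 0.14) had an adjusted p of 0.057. Slco2b1, a carrier of steroid sulphates, had a log2 fold change of 0.34 (adjusted p = 0.136) and Slco1a6 one of 0.50 (adjusted p = 0.0612). Slco1c1, the high-affinity thyroxine carrier of brain vessels, had at most 3 counts in any mouse.

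The thyroid hormone genes outside these families moved in both directions. Of 8 tested, 2 were upregulated and 3 downregulated (4.27% and 3.38% of all tested genes), with a median log2 fold change of -0.18. The carrier Slc16a10 (MCT10) fell from 54.3, 39.9 and 49.9 to 20.4, 14.4 and 19.2 CPM (log2 fold change -1.42, adjusted p = 0.000999). Crym, a cytosolic binder of the hormone, fell from 3.64, 4.53 and 5.53 to 0.76, 0.487 and 0.667 CPM (-2.83, adjusted p = 0.000566). Dio2, the deiodinase that activates thyroxine, rose from 2.78, 3.41 and 2.07 to 16.2, 15.1 and 9.47 CPM (2.30, adjusted p = 0.00103). Dio3, the deiodinase that inactivates the hormone, rose by 1.10 on the log2 scale (adjusted p = 0.0259). In these 4 genes the groups did not overlap.

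**Figure D4:**
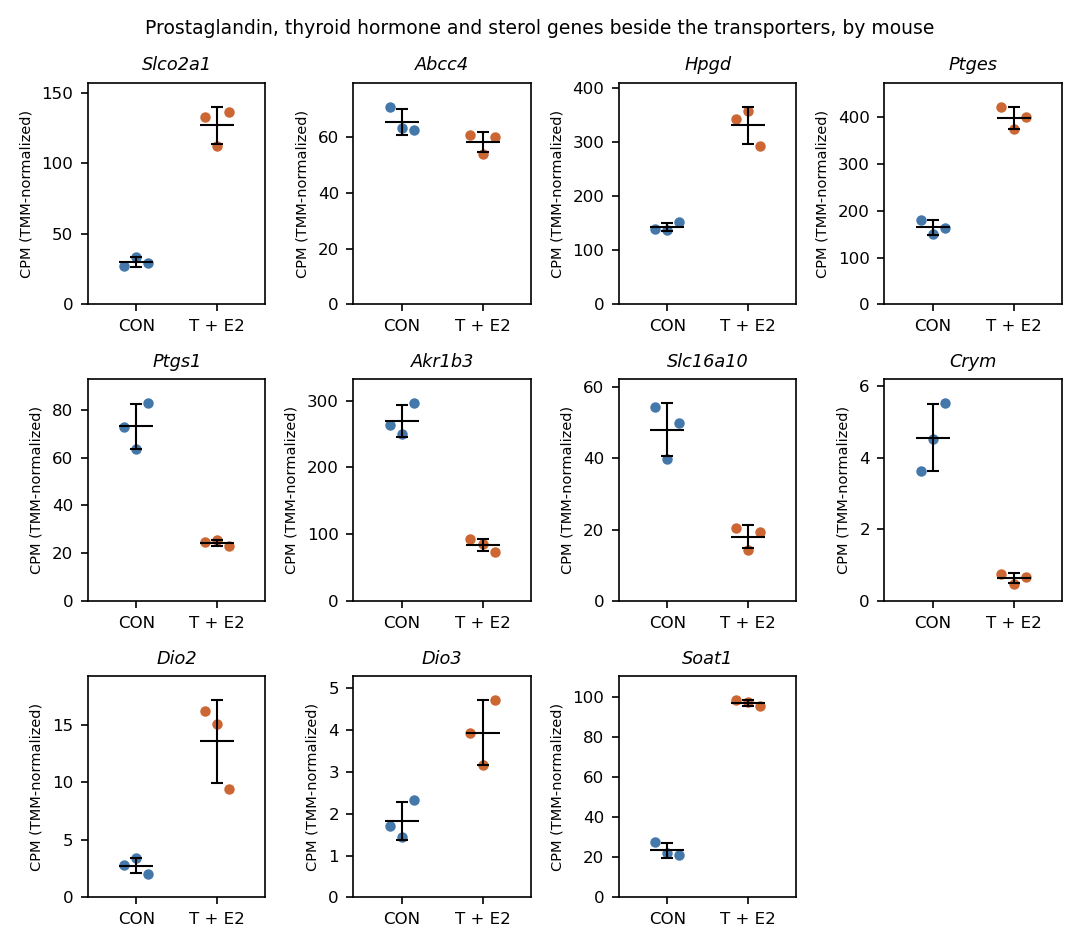
CPM by mouse (vertical axes, each from 0) of Slco2a1 and Abcc4 beside genes of prostaglandin, thyroid hormone and sterol handling, CON in blue and T + E2 in orange, with the mean and SD in black. In all panels except Abcc4 the genes are DEGs, with Slco2a1, Hpgd, Ptges, Dio2, Dio3 and Soat1 higher and Ptgs1, Akr1b3, Slc16a10 and Crym lower in T + E2.

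The C family exports conjugates of glutathione, glucuronic acid and sulphate, and also holds the sulphonylurea receptors, which do not pump but form potassium channels with Kir6 subunits. Abcc3 (MRP3), an exporter of glucuronides and bile salts, was the most abundant with 25.3, 20.3 and 26 FPKM in CON and 14.3, 10.7 and 13.2 FPKM in T + E2. The groups did not overlap, and in CPM it fell from 173 ± 24.5 to 94.7 ± 15.5 (SD, n = 3), a log2 fold change of -0.87 (SE 0.15, adjusted p = 0.00609). Abcc1 (MRP1), which exports glutathione conjugates, had 24.6, 23.8 and 22.6 CPM in CON and 27.6, 27.9 and 33.6 CPM in T + E2 (0.33, SE 0.11, adjusted p = 0.0726). Abcc2 (MRP2), its counterpart of the apical membrane, had 15, 5 and 18 counts in CON and 3, 5 and 3 counts in T + E2 and was too low to be tested with all mice. CON replicate 2 was level with T + E2 replicate 2.

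The 2 sulphonylurea receptors moved in opposite directions. Abcc9 (SUR2), which is known from muscle and from the pericytes of small vessels, rose from 24, 23.1 and 20.6 CPM to 36, 43.8 and 45.7 CPM. The T + E2 mice were all above the CON mice, at a log2 fold change of 0.89 (SE 0.12, adjusted p = 0.0019). Abcc8 (SUR1), known from islet beta cells and neurons, fell from 15, 12 and 11 counts to 3, 2 and 3 counts. All T + E2 mice were at or below the limit of 3 counts, so the size of the fall is poorly set. The CON mean of 0.824 CPM was 4.25 times the CPM of 3 counts. The fitted log2 fold change was -2.18 (SE 0.42, adjusted p = 0.00961). DESeq2 gave an adjusted p of 0.0638. Of their channel partners, chosen after their values were seen, Kcnj8 (Kir6.1) had 7.01, 8.53 and 7.6 CPM in CON and 9.12, 9.79 and 10.5 CPM in T + E2 (0.35, adjusted p = 0.136), and Kcnj11 (Kir6.2) had at most 4 counts in any mouse. The summed smooth muscle markers were lower in the T + E2 mice, as given above. The endothelial sums nearly met, at 155.3 CPM in the highest CON mouse and 155.6 CPM in the lowest T + E2 mouse. Single endothelial markers were mixed, with Vwf higher by 0.65 on the log2 scale (adjusted p = 0.0233). Cdh5 (-0.21) and Cldn5 (-0.24) did not pass. The part of muscle and vessel cells in the change of Abcc9 was not tested.

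Of 12 tested genes of sulphate and glutathione handling, 2 were upregulated and 0 downregulated in edgeR and in DESeq2 (2 lower at an unadjusted p under 0.05 in edgeR). For all tested genes edgeR called 4.27% and 3.38%, and the median log2 fold change of the 12 was 0.34. The list includes sulphotransferases, genes of glutathione synthesis and gamma-glutamyltransferases, and no glutathione transferase, so not all of its genes conjugate substrates. Sult1e1, the estrogen sulphotransferase, rose from 28.8, 25.3 and 27.5 CPM to 51.2, 93.9 and 61.1 CPM (log2 fold change 1.34, SE 0.21, adjusted p = 0.0038). Ggt6, of the gamma-glutamyltransferase family, rose from 0.463, 0.394 and 0.503 CPM to 2.35, 1.03 and 1.4 CPM (1.79, SE 0.40, adjusted p = 0.0187). In neither gene did the groups overlap. At the adjusted p alone Papss1 and Ggt5 were higher, by 0.51 and 0.73 on the log2 scale, and Papss2 and Gss lower, by -0.78 and -0.77.

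The A and G families move lipids. Abca4, the retinoid flippase of photoreceptors, was upregulated from a very low level, with 6, 4 and 5 counts in CON and 28, 17 and 16 counts in T + E2. Every T + E2 mouse was above every CON mouse, and T + E2 replicate 1 was highest. The mean went from 0.325 ± 0.0679 to 1.35 ± 0.511 CPM (SD, n = 3), a log2 fold change of 2.02 (SE 0.41, adjusted p = 0.0121), and per length it stayed below 0.15 FPKM in each mouse. Without CON replicate 3 the adjusted p was 0.0507. Abca5, a lysosomal lipid pump and the most abundant member that rose, went from 241, 167 and 185 CPM to 377, 343 and 296 CPM. The groups did not overlap (log2 fold change 0.78, SE 0.16, adjusted p = 0.0112). It stands at the end of a row of 5 related genes on the minus strand of chromosome 11, in the order Abca8b, Abca8a, Abca9, Abca6 and Abca5. Its 4 neighbours there had log2 fold changes of -0.08 (Abca8b), -0.17 (Abca8a), 0.57 (Abca9, adjusted p = 0.0953) and 0.57 (Abca6, adjusted p = 0.222), and none passed. Abca3, the phospholipid pump of surfactant in lung, was the most abundant A member in CON at 21.1 ± 0.737 FPKM and stood at 17.7 ± 2.45 FPKM in T + E2 (SD, n = 3), with a log2 fold change of -0.22 (adjusted p = 0.2). The noncoding D330041H03Rik shares 914 exon bases with it on the opposite strand, and whether counting used the strand is not given in the sources used here.

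Cholesterol leaves cells through Abca1, Abcg1 and Abcg4. Abcg4, a sterol exporter known mainly from neurons, fell from 8.27, 9.12 and 7.1 CPM to 2.9, 2.25 and 2.67 CPM. Every T + E2 mouse was below every CON mouse, and the mean went from 8.16 ± 1.01 to 2.61 ± 0.33 CPM (SD, n = 3), a log2 fold change of -1.65 (SE 0.20, adjusted p = 0.00116). Of the nerve and glia markers Sox10 (log2 fold change -1.66, adjusted p = 0.00259) was also a DEG, S100b (-0.58) did not pass, and the part of nerve in the values of Abcg4 and Abcc8 was not tested. Abcg1, the macrophage sterol exporter, had 9.86, 7.22 and 5.03 CPM in CON and 3.18, 4.26 and 4.93 CPM in T + E2. The groups did not overlap but CON replicate 3 and T + E2 replicate 3 nearly met (log2 fold change -0.83, SE 0.28, adjusted p = 0.0762), and without CON replicate 3 the change was -1.05 with an adjusted p of 0.0429. Abca1, the exporter of cholesterol to apolipoprotein A1, had 98.2, 56.3 and 61.3 CPM in CON and 56.5, 73.3 and 67.7 CPM in T + E2, where only CON replicate 1 stood apart (-0.13, adjusted p = 0.71). Abcg2 (BCRP), a drug and urate pump, had a log2 fold change of 0.12 (adjusted p = 0.562).

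Of 13 tested partners of cholesterol efflux 1 was a DEG (7.64% of all tested genes), and the median log2 fold change was 0.12. Soat1, which esterifies cholesterol for storage, rose from 27.9, 22 and 21 CPM to 98.6, 97.4 and 95.5 CPM (2.04, SE 0.12, adjusted p = 3.86e-05). At the adjusted p alone Npc2, which carries cholesterol out of lysosomes, Apoc1 and Nceh1, which frees stored cholesterol, were higher by 0.83, 0.86 and 0.55 on the log2 scale. Of 15 tested nuclear receptors and other factors known to control transporter genes, 1 was a DEG, against the same 7.64%, and the median was -0.15. Rxrg, a retinoid X receptor, fell from 12, 15.1 and 14.1 CPM to 5.67, 6.51 and 4.13 CPM (log2 fold change -1.33, adjusted p = 0.00275). Nr1h3, the sterol sensor LXR alpha, rose by 0.59 (adjusted p = 0.0477) and Ahr, the receptor of aromatic compounds, by 0.62 (adjusted p = 0.0191), and Srebf1 fell by 0.49 on the log2 scale (adjusted p = 0.0196).

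Most of the D family imports fatty acyl-CoA into peroxisomes, while Abcd4 works in lysosomes in the transport of cobalamin. The log2 fold changes of Abcd3 (-0.04) and Abcd4 (-0.09) did not pass. Abcd2, known from fat and brain, had 9.18 CPM in CON replicate 2 and 2.27 to 4.44 CPM in the other 5 mice. That was also the mouse with the most adipocyte marker RNA, and the log2 fold change of Abcd2 was -0.45 with an SE of 0.50 (adjusted p = 0.554). The E and F families stood among the most abundant members and did not pass in edgeR or DESeq2. In edgeR 1 of their 4 genes had an unadjusted p under 0.05, and 7.64% of all tested genes were DEGs. Abce1, which splits ribosomes for recycling, had 33.4 ± 2.05 FPKM in CON and 36.4 ± 3.04 FPKM in T + E2 (SD, n = 3), Abcf2 29 ± 1.82 and 28 ± 1.17 FPKM, and Abcf1, a factor of translation initiation, 25.2 ± 0.86 and 21.2 ± 1.49 FPKM. Their log2 fold changes were 0.17, -0.01 and -0.21.

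**Figure D5:**
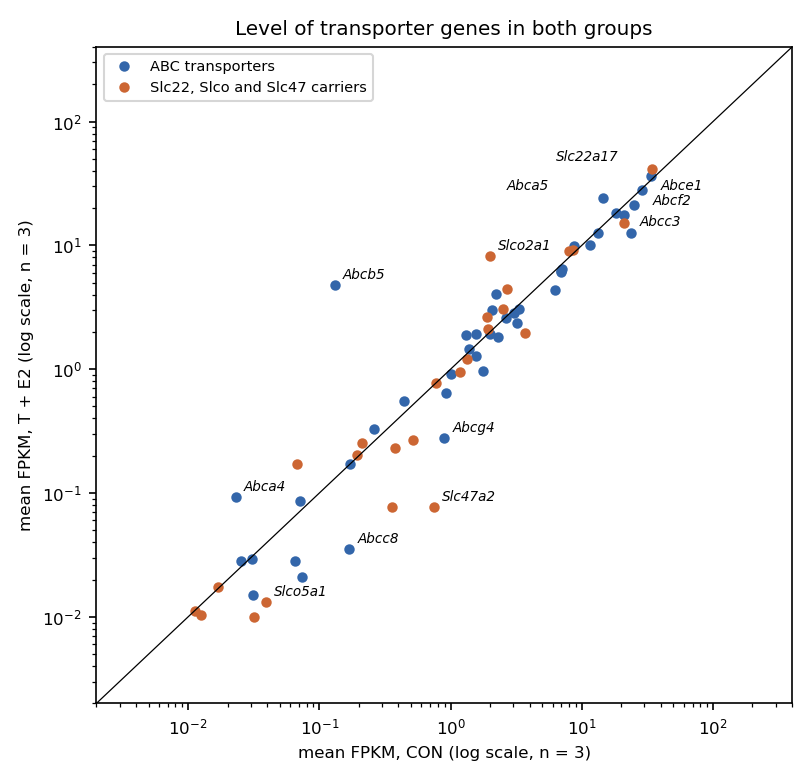
Mean FPKM of transporter genes in the T + E2 group (vertical axis, log scale) is plotted against that in the CON group (horizontal axis, log scale), n = 3 mice each, with the line of equal levels. It holds 67 genes above 0 in both groups and none of the 22 at 0 in a group, and Abcb5 stands farthest from the line, while the abundant genes lie close to it, Abcc3 below and Abca5 above.

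Summed over all 92 genes, expression was 2340 to 2525 CPM in CON and 2442 to 2514 CPM in T + E2. By family, with no test, the Slco genes together took 206 to 244 CPM in CON and 274 to 313 CPM in T + E2, the Abcc genes 327 to 370 and 262 to 298 CPM, the Abca genes 686 to 840 and 858 to 869 CPM, the Slc22 genes 334 to 378 and 273 to 307 CPM, the Abcg genes 26.8 to 35.1 and 22.1 to 26.4 CPM and the 2 Slc47 genes 2.78 to 3.58 and 1.11 to 1.82 CPM. The ranges of these 6 families did not overlap between the groups, and those of the Abcb, Abcd, Abce and Abcf families did. Such sums weigh long and abundant genes most, as Abcc3 makes up a large part of that of its family. In the Slco sum, Slco2a1 alone went from 27.3, 33.7 and 29.1 to 133, 112 and 136 CPM. Slco3a1 and Slco4c1 were lower in T + E2, so the higher Slco sum does not describe the family as a whole. In the Abca sum, Abca5 alone went from 241, 167 and 185 to 377, 343 and 296 CPM.

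Of the 34 genes that were not tested, 7 had more than 3 counts in at least 1 mouse. Slco1a4, a carrier of brain vessels and liver, had 5, 9 and 8 counts in CON and 20, 31 and 8 counts in T + E2. Slco1a5 had 11, 45 and 9 counts in CON, CON replicate 2 standing apart, and 3, 9 and 3 counts in T + E2. Transcripts of the Slco1a genes are 85.7 to 89.1% identical in long stretches, so their reads could be shared. The bile salt pump Abcb11 had 8, 5 and 8 counts against 1, 1 and 7. The phospholipid pump Abcb4 and the sterol pumps Abcg5 and Abcg8 had at most 9 counts in any mouse, with overlapping groups. Genes known mainly from liver, kidney or testis made up much of the 27 at the limit, among them Slco1b2, Slc22a7, Slc22a12 and the testis genes Slco6c1 and Slco6d1. Slco6b1, also among the 27, is annotated as a transcribed pseudogene.

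Of 6 tested scaffold proteins that hold transporters at the membrane none was a DEG by edgeR or DESeq2. In edgeR 2 of the 6 had an unadjusted p under 0.05, and 7.64% of all tested genes were DEGs. Slc9a3r2 fell by 0.97 on the log2 scale (SE 0.13, adjusted p = 0.00171), with a list median of -0.22. Of 18 tested carriers of bile acids, nucleosides, folate, peptides and other organic solutes in other families 2 were upregulated and 2 downregulated (against the same 4.27% and 3.38%), with a median of 0.01. Slc15a1, the intestinal carrier of small peptides, had no count in any CON mouse and 24, 55 and 20 counts in the T + E2 mice. Slc10a6, a carrier of sulphated steroids, rose from 1.39, 1.97 and 1.88 CPM to 3.94, 5.84 and 3.67 CPM (log2 fold change 1.36, SE 0.27, adjusted p = 0.0116). Slc10a4, a vesicle protein of neurons and mast cells, fell from 12.9, 13.1 and 9.42 CPM to 1.73, 3.41 and 4.53 CPM (-1.87, SE 0.32, adjusted p = 0.00563), and Slc29a4, a carrier of monoamines, from 9.2, 6.76 and 5.4 CPM to 1.17, 1.4 and 3.93 CPM (-1.71, SE 0.45, adjusted p = 0.0325). In all 4 genes the groups did not overlap. The 5 mast cell markers, summed, were also lower, at 28.3 to 41.4 CPM in CON and 15.5 to 23.8 CPM in T + E2, and their part in these values was not tested.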

How the data were processed

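Total RNA of 6 prostates was sequenced as paired-end libraries, and the labels number the 3 mice of each group, which are separate animals. The authors deposited whole-number counts of reads per gene without normalization, and FPKM values per gene that divide the count by gene length and library total. The submitters' processing notes name TopHat, Bowtie2 and HTSeq, and the annotation and any use of strand in counting are not given in the sources used here. All 92 member identifiers occur in GENCODE M21 (GRCm38), 75 with the same start and end.

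Counts were analysed with edgeR 4.0.16 in R 4.3.3. Genes were kept by filterByExpr (minimum count 10, total 15), which left 15580, scaled by TMM and compared between all 6 samples by the quasi-likelihood test with Benjamini-Hochberg adjustment. CPM are TMM-normalized. Standard errors were taken from the fold change and its F statistic. The study's thresholds were used. Levels of different genes were compared in FPKM only.

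Named were all DEGs, members with adjusted p under 0.05, the 8 highest in FPKM, well-known members and up to 4 DEGs per related list. Some genes that this choice takes in are not reported here, and the plots leave them out. Members and lists were chosen with earlier results of these data known. Further genes and mice were named after their values were seen, among them Lcn2, Kcnj8, Kcnj11, Cftr, Ptgs2, members close to the threshold, and the alternative without both mice numbered 2. Transcripts were compared with BLAST 2.17.0+ (85% identity over 300 bases), and copies sharing at least 50% of a transcript were summed as an alternative, on transcript instead of protein identity. Promoter windows hold the 250 bases before RefSeq starts. Abcc8, Abcg4 and Slco5a1 were not matched. Alternatives were DESeq2 1.42.0, median-of-ratios and total-count scaling, no filter, a filter at 1 FPKM in 3 samples, limma 3.58.1 on log2(FPKM + 1) and log2(FPKM + 0.1), a replicate block, a threshold of 0.01, and leaving out each mouse. Both limma runs kept genes with at least 0.1 FPKM in at least 3 samples. The scripts were tested on simulated data. Python 3.11.15 and matplotlib 3.10.9 drew the figures. An exact permutation test over 3 against 3 mice cannot go below 0.10, so none was used.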

Additional observations from a re-analysis of the deposited data

How the results depend on the processing

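Abcb5 and Slco2a1 were DEGs under all alternatives run. Members called numbered 5 with DESeq2 (2 lower), which lost Abcc8 (adjusted p = 0.0638) and Slco5a1 (0.155), 7 with either other scaling, 6 without a filter and 5 at a threshold of 0.01. With at least 1 FPKM in 3 samples, 2 were called, both higher and 0 lower, because the other 5 were not fitted. At the adjusted p alone 5 were lower, and at an unadjusted p under 0.05 10 were. limma on log2(FPKM + 1), which compresses low values (Abcb5 2.35 in place of 5.22), called 2, with 0 lower (13 at an unadjusted p under 0.05, 6 at the adjusted p alone), and 11 genes of the related lists (5 higher) against 17 (9 higher). On log2(FPKM + 0.1) limma called 4, with 2 lower. Both limma runs kept genes with at least 0.1 FPKM in at least 3 samples, so Abca4 and Slco5a1 were not fitted in them. Over all genes DEGs numbered 561 with limma on log2(FPKM + 1), 809 without both mice numbered 2 and 757 at a threshold of 0.01, against 1191. The replicate numbers did not pair the mice (correlations of deviations -0.0516, 0.0275 and 0.0463), and a replicate block left 6 members and 1013 genes called. Leaving out each mouse in turn gave 6 to 8 members called (2 to 4 higher, 3 to 5 lower), 13 to 16 at the adjusted p alone (5 to 8 higher, 7 to 8 lower) and 14 to 19 genes of the related lists (7 to 10 higher, 7 to 9 lower). Mice whose loss changed which members were called are CON replicate 1 and T + E2 replicate 2 (Slco5a1 lost), CON replicate 2 (Slco5a1 lost, Abcc2 among those gained), CON replicate 3 (Abca4 and Slco5a1 lost, Abcg1 gained) and T + E2 replicate 3 (Slco5a1 lost, Slco1a4 and Slco3a1 gained). Only values of genes that did not pass changed sign. With each mouse left out in turn Abca1 ranged from -0.28 to 0.16, Abcf2 from -0.06 to 0.04, Abcg2 from -0.01 to 0.19 and Slc47a1 from -0.02 to 0.66. Without both mice numbered 2 Abcf2 was 0.01 and Abcg2 -0.0028, and Abcb1b summed with its copy was -0.03. Of 275 values of the 32 genes chosen for naming under the 9 settings other than leaving out 1 mouse or summing copies, 262 kept direction and side of the threshold. Another 11 were lost calls of DEGs and 2 changed sign. Only 7 of the 32 genes were DEGs in the main fit, so most of the 262 are genes that stayed uncalled. Genes not fitted under a setting are not among the 275. The cause of the changes not explained here was not tested. Of the 34 members not tested, 27 had at most 3 counts in every mouse, the limit set by depth.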
